A study of Homo sapiens with 4 samples.

Results

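Retinoid receptors and the proteins that handle retinoic acid were followed in SH-SY5Y, a cell line grown from a human neuroblastoma, after knockdown of the histone demethylase LSD1. The 10 genes are RARA, RARB, RARG, RXRA, RXRB, CRABP1, CRABP2, DHRS3, CYP26A1 and CYP26B1, and their probe sets were chosen by the gene symbol of the platform annotation alone. Every probe set that named exactly 1 of these symbols was kept, which gave 23 of the array's 54675 probe sets and covered 9 of the 10 genes. No probe set is listed for CRABP1 in the annotation used, so CRABP1 was not analysed here. The cells had received a control siRNA (siControl, 2 arrays) or an siRNA against LSD1 (siLSD1, 2 arrays), and per the design text each array of a group comes from a separate transfection. The labels name no retinoid and no other agent in either group, so the retinoid genes were measured without a stated retinoid treatment. All values come from 1 cell line, so p-values reflect only how much transfections of that line vary.

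Retinoic acid is made from retinol by way of retinal, and DHRS3 runs the first step backwards by reducing retinal to retinol. Inside the cell retinoic acid is held by the binding proteins CRABP1 and CRABP2 and is broken down by the cytochrome P450 enzymes CYP26A1 and CYP26B1. It acts through the retinoic acid receptors RARA, RARB and RARG, which bind DNA as pairs with a retinoid X receptor such as RXRA or RXRB. Retinoic acid drives neuroblastoma cells towards a neuronal form, and RARB, CYP26A1 and DHRS3 are textbook examples of genes that it switches on.

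The promoters of 2 of the genes hold a sequence of the kind that the receptor pairs bind. Receptor pairs bind repeats of a core of 6 bases in the same orientation, and the classical retinoic acid element has 5 bases between the repeats. The windows from 250 bases before to 50 bases after each RefSeq start (GRCh38.p14) were searched on both strands for any pair of cores with 5 bases between them. As cores, the letters AGGTCA were allowed along with AGTTCA as a variant, as well as GGGTCA with its own variant GGTTCA. Of 35116 windows over all genes, 0.0883% held such a repeat. Among the 20 windows of the 10 retinoid genes, 2 held one, in RARB (chr3:25428013-25428312, plus strand) and in CYP26A1 (chr10:93073643-93073942, plus strand). Both windows are shown 5′ to 3′ because they hold the only such repeats found for these genes, and the capitals mark the repeat.
RARB: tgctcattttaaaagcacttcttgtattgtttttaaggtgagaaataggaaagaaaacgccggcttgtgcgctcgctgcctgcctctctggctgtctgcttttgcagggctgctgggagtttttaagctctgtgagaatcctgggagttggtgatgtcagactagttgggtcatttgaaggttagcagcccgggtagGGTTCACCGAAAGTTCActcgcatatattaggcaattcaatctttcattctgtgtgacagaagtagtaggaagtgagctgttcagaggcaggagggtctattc
CYP26A1: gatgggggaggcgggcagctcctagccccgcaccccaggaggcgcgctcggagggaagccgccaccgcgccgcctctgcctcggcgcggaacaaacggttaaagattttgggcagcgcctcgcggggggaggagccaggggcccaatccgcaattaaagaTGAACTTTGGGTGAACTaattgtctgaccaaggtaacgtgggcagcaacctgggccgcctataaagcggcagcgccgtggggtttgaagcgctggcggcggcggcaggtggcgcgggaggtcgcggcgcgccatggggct
In RARB the repeat lies at positions -53 to -37 from the start and reads in the direction of the gene, and in CYP26A1 it lies at -90 to -74 and reads on the opposite strand. The same cores with 1 or 2 bases between them were found in 0 of the 20 windows, against 0.131% and 0.0399% of all windows. At such shares 0 of 20 does not set these genes apart. A match describes the letters of a window and says nothing about binding in these cells.

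Array values are log2 signals after quantile normalization, and a difference is always siLSD1 minus siControl on the log2 scale. The siRNA target was lower, as KDM1A, the gene of LSD1, had signals of 9.79 and 9.78 in siControl and 8.40 and 8.54 in siLSD1 (difference -1.32, 95% interval from -1.70 to -0.94). The series has 27307 probe sets whose mean over the 4 arrays reached the median level of all probe sets (4.02), and these were tested. In limma 0 of them passed an adjusted p of 0.05 in either direction, KDM1A included (0% called higher and 0% called lower), and 979 (3.59%) had an unadjusted p under 0.05. The smallest p that an exact permutation test of 2 against 2 arrays can give is 0.333, and the number of arrays limited the precision. The 95% interval of a tested probe set had a median half-width of 0.71. The array siControl replicate 1 stood apart, with correlations of 0.945 to 0.948 with the other arrays across tested probe sets, against 0.963 to 0.972 among those. Noradrenergic neuroblastoma markers were high, for example GATA3 at 11.45 to 11.68 over the arrays by its brightest probe set, whereas TH, the first enzyme of catecholamine synthesis, lay below the filter. No probe set of the Schwann and glial list passed the filter, and no blood marker had a mean above 4.44. Fibroblast markers had 12 tested probe sets, of which 10 were higher in siLSD1 by their means. For 6 of the 10 the groups did not overlap, where 16.3% of all tested probe sets were separated in this direction. Their linear signal, summed over the highest value of each gene, was 1594 and 1124 in siControl and 1460 and 1734 in siLSD1, and the groups overlapped. Their part in the retinoid results was not tested.

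The receptors and CRABP2 each had a probe set above the filter, while the enzymes that remove retinoic acid or its precursor were dim on all or most arrays. The filter is the median level of the array and does not show that a gene was detected. Of the 23 probe sets, 10 passed the filter, from 6 genes (RARA, RARB, RARG, RXRA, RXRB and CRABP2), and 13 lay below it. All probe sets of DHRS3, CYP26A1 and CYP26B1 were among the dim ones. In limma 0 of the 10 tested probe sets passed the threshold, and 0 had an unadjusted p under 0.05. Their smallest unadjusted p was 0.0532, and their adjusted p-values were all at least 0.99. By their means 4 of the 10 were higher and 6 lower in siLSD1, with a median difference of -0.12 that was -0.16 under the deposited scaling and turned to 0.01 under median centring. With siLSD1 replicate 2 left out, 6 of the same 10 had the higher siLSD1 mean and the median was 0.03. With siLSD1 replicate 1 left out, 5 did, at a median of -0.02. Over all tested probe sets 49.7% had a higher and 50.3% a lower mean, and the median difference was -0.0020. The groups did not overlap for 4 of the 10, which were 2 higher and 2 lower, where 32.4% of all tested probe sets did not overlap (16.3% higher, 16% lower). Among the 2 higher, RARA 1565358_at passed the filter only through its siLSD1 values, with means of 3.86 in siControl and 4.58 in siLSD1. The share of retinoid probe sets with separate groups thus lay near that of the whole array. In RNA of a whole culture, fewer expressing cells and less RNA per cell cannot be told apart.

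**Figure D1:**
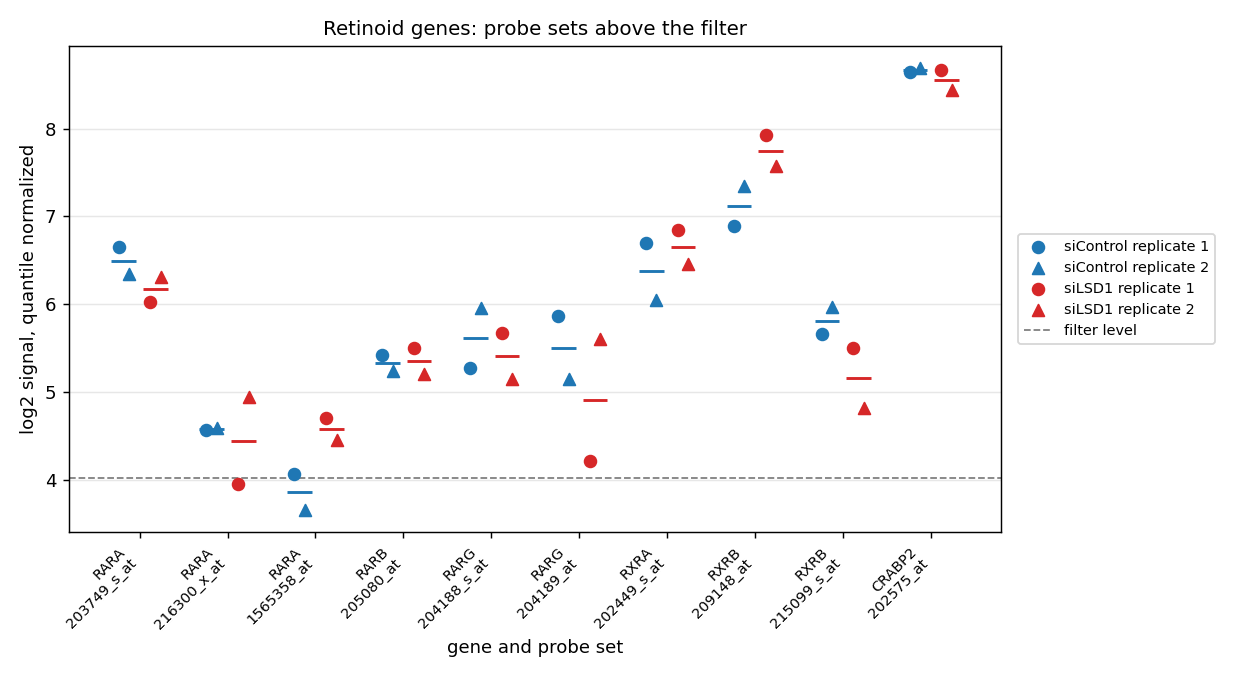
Log2 signal after quantile normalization (vertical axis) of the 10 tested probe sets of retinoid receptors and CRABP2 on each array. Points are single arrays, short bars are the means of 2 arrays, and the dashed line is the filter level of 4.02. The siLSD1 points of RXRB lie above the siControl points for probe set 209148_at and below them for 215099_s_at.

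RXRB, a retinoid X receptor that pairs with the retinoic acid receptors, gave the smallest p among the 10 tested probe sets, and its probe sets pointed in opposite directions. Probe set 209148_at had signals of 6.89 and 7.34 in siControl and 7.92 and 7.58 in siLSD1. Both siLSD1 arrays were above both siControl arrays. The means were 7.12 ± 0.32 and 7.75 ± 0.25 (SD, n = 2), a 1.55-fold higher level in siLSD1. The difference was 0.63 (95% interval from -0.01 to 1.27, limma unadjusted p = 0.0532, adjusted p = 0.99). In limma without a filter 209148_at had an unadjusted p of 0.0399 and an adjusted p of 0.98. In that fit 2 of the 23 retinoid probe sets had an unadjusted p under 0.05, against 4.1% of all probe sets. Probe set 215099_s_at had signals of 5.66 and 5.97 in siControl and 5.51 and 4.82 in siLSD1, with both siLSD1 arrays below both siControl arrays. Its difference was -0.65 (95% interval from -1.48 to 0.19, limma unadjusted p = 0.111, adjusted p = 0.99). The third, 215098_at, was dim, at 4.38 and 3.66 in siControl and 3.64 and 3.70 in siLSD1, and its groups overlapped. In the annotation 215099_s_at and 215098_at name the same source record, and 209148_at names another. Since the groups of both probe sets were separate, leaving out 1 array could not turn either sign. The differences then ran from 0.41 to 0.86 for 209148_at and from -0.99 to -0.30 for 215099_s_at. The mean over the 3 probe sets had a difference of -0.12. Whether the probe sets differ from each other was not tested, and these data give no single direction for RXRB.

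RXRA, the other retinoid X receptor of the group, had signals of 6.70 and 6.05 in siControl and 6.85 and 6.46 in siLSD1 by probe set 202449_s_at. The groups overlapped, and the siControl arrays differed from each other by more than the group means did. The difference was 0.28 (95% interval from -0.48 to 1.04), and it turned to -0.05 without siControl replicate 2. The dim probe set 202426_s_at was at 4.29 and 4.21 in siControl and 2.62 and 4.06 in siLSD1. Its lower siLSD1 mean rested on siLSD1 replicate 1, as the difference of -0.91 was -0.19 without that array.

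RARA, a retinoic acid receptor expressed in many tissues, had 5 probe sets, of which 3 were tested. Probe set 203749_s_at was at 6.65 and 6.35 in siControl and 6.03 and 6.31 in siLSD1. Both siLSD1 arrays lay below the siControl arrays, but siControl replicate 2 and siLSD1 replicate 2 were close, and the difference of -0.33 had a standard error of 0.29 and was -0.18 to -0.48 with 1 array left out. Probe set 1565358_at lay on the other side, at 4.07 and 3.66 in siControl and 4.70 and 4.45 in siLSD1, with a difference of 0.71 (95% interval from -0.27 to 1.69). Probe set 216300_x_at, of a type that shares probes with other sequences, was at 4.57 and 4.59 in siControl and 3.95 and 4.94 in siLSD1. The siLSD1 arrays of this probe set fell on both sides of the controls, and its difference of -0.13 turned to 0.36 without siLSD1 replicate 1.

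The dim probe sets of RARA included the largest difference among the 23. Probe set 203750_s_at was at 5.52 and 4.76 in siControl and 0.79 and 3.96 in siLSD1. Both siLSD1 arrays were lower, but they differed from each other by more than 3 log2 units (SD 2.24). The difference of -2.76 was -1.18 without siLSD1 replicate 1 and -4.35 without siLSD1 replicate 2. In limma without a filter its unadjusted p was 0.0303 and its adjusted p 0.98, and 4.1% of all probe sets had an unadjusted p under 0.05 there. The last probe set of RARA, 211605_s_at, was at 3.27 and 3.96 in siControl and 2.66 and 3.95 in siLSD1, and its groups overlapped.

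RARB, the receptor whose promoter holds the repeat printed above, did not differ beyond its spread. Probe set 205080_at was at 5.42 and 5.24 in siControl and 5.50 and 5.21 in siLSD1. The siControl values lay between the siLSD1 values. The means were 5.33 ± 0.13 and 5.36 ± 0.21 (SD, n = 2), and the difference of 0.03, which turned to -0.0029 under the deposited scaling, had a 95% interval from -0.72 to 0.78. It also turned without siControl replicate 2 (-0.07) and without siLSD1 replicate 1 (-0.12). For this probe set the interval corresponds to ratios from 0.605 to 1.72, and the dim probe sets of RARB had wider ones.

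The other 4 probe sets of RARB were dim and did not share a direction. Probe set 208413_at, at 0.86 and 1.22 in siControl and 0.11 and -0.52 in siLSD1, was lower on both siLSD1 arrays. The remaining 3 had higher siLSD1 means with overlapping groups, and their differences ran from 0.36 (208530_s_at) through 0.90 (208412_s_at) to 1.04 (217020_at). On siControl replicate 1, 208412_s_at was at 0.64 against 3.41 on the other control array, and its difference turned to -0.49 without siControl replicate 1. That of 208530_s_at turned to -0.45 without the same array and to -0.07 without siLSD1 replicate 1. For 217020_at, leaving out siControl replicate 2 gave a difference of 0.17, against 1.91 when siControl replicate 1 was left out. Probe sets 205080_at, 208412_s_at and 208413_at name the same RefSeq transcript, so they are not independent measurements of the gene.

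RARG, a retinoic acid receptor best known from skin, had lower siLSD1 means in 3 of 3 probe sets, with overlapping groups in each. Probe set 204188_s_at was at 5.27 and 5.96 in siControl and 5.68 and 5.15 in siLSD1, with a difference of -0.20 that turned to 0.14 without siControl replicate 2 and to 0.06 without siLSD1 replicate 2. Probe set 204189_at was at 5.86 and 5.15 in siControl and 4.22 and 5.60 in siLSD1. Its difference of -0.59 (95% interval from -1.79 to 0.60) rested on siLSD1 replicate 1 and was 0.10 without that array. The dim probe set 217178_at was at 2.82 and 2.24 in siControl and 2.75 and 0.61 in siLSD1, and only siLSD1 replicate 2 stood far below the other arrays.

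CRABP2, the binding protein that passes retinoic acid to the receptors, had the narrowest interval of the group. Its signal was 8.64 and 8.69 in siControl and 8.67 and 8.44 in siLSD1. Of the siLSD1 arrays, replicate 1 lay between the controls and replicate 2 below them. The means were 8.66 ± 0.04 and 8.56 ± 0.16 (SD, n = 2), and the difference of -0.11 had a 95% interval from -0.56 to 0.34. It turned to 0.10 under median centring and to 0.0062 without siLSD1 replicate 2. The interval corresponds to ratios from 0.679 to 1.27, so a change of CRABP2 by 2-fold in either direction lay outside it.

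The genes that limit retinoic acid had group means below the filter level in siControl and in siLSD1. DHRS3, which reduces retinal, was at 4.37 and 1.66 in siControl and 1.69 and 1.26 in siLSD1. One array, siControl replicate 1, stood above the other 3, which lay close together. The difference of -1.54 was -0.18 without siControl replicate 1 and -2.89 without siControl replicate 2, so its size depended on that array.

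CYP26A1, the main retinoic acid hydroxylase and a gene with the printed repeat, was at 1.22 and 1.79 in siControl and -0.44 and 0.12 in siLSD1. The siLSD1 arrays were the lower pair, with means of 1.501 ± 0.40 and -0.16 ± 0.40 (SD, n = 2). With the groups separate, the difference of -1.66 could not turn when 1 array was left out, and it ran from -1.95 to -1.37. Its 95% interval ran from -3.95 to 0.63, and limma without a filter gave an unadjusted p of 0.131 and an adjusted p of 0.98.

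CYP26B1, a second hydroxylase of retinoic acid, had 2 dim probe sets. Probe set 234721_s_at was at 3.34 and 1.43 in siControl and 0.58 and 0.74 in siLSD1, with both siLSD1 arrays lower. Its difference of -1.72 was -0.77 without siControl replicate 1. Probe set 219825_at was at 0.79 and 2.01 in siControl and 0.69 and 1.02 in siLSD1, with overlapping groups and a difference of -0.55. Leaving out siControl replicate 2 turned this difference to 0.06, and leaving out siControl replicate 1 gave -1.16.

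**Figure D2:**
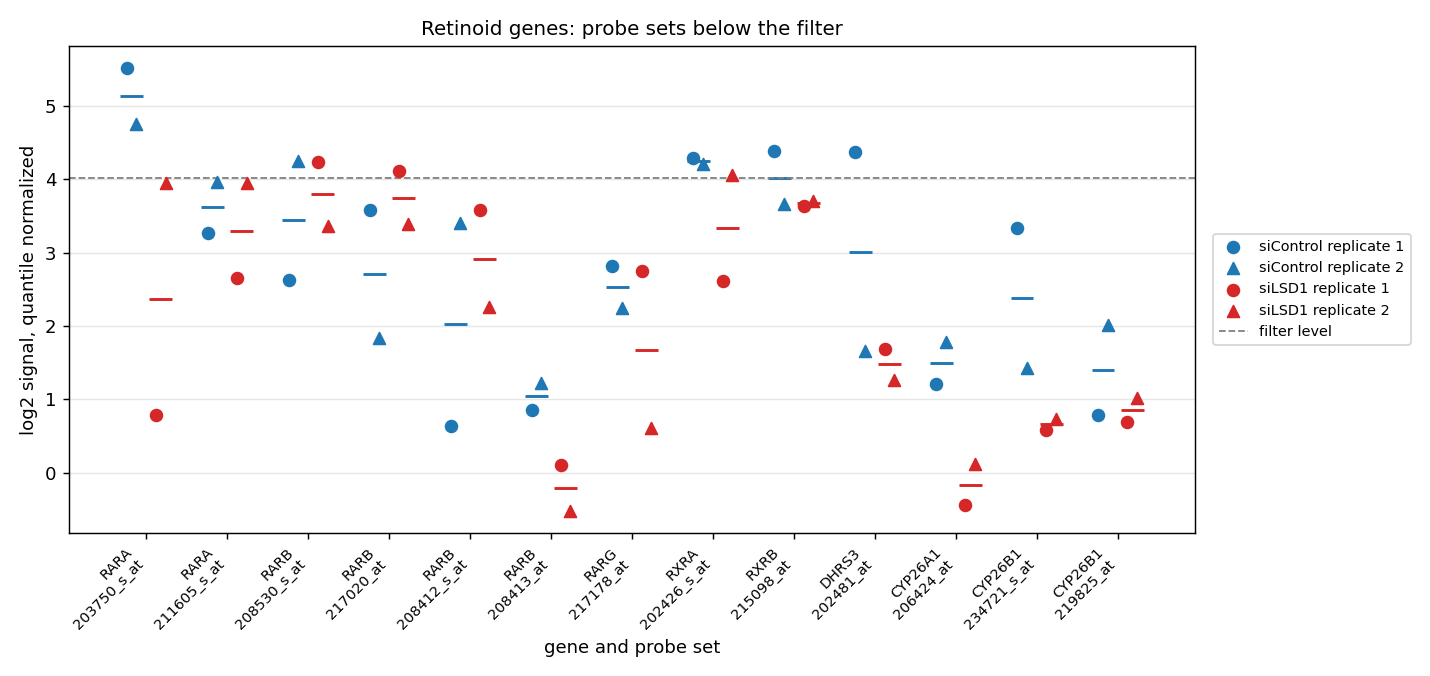
Log2 signal after quantile normalization (vertical axis) of the 13 retinoid probe sets below the filter on each array, with points for arrays, short bars for the means of 2 arrays and a dashed line at the filter level of 4.02. DHRS3 on siControl replicate 1 (4.37) and RARA 203750_s_at on siLSD1 replicate 1 (0.79) stand far from the other array of their group.

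Among the 13 dim probe sets, 10 had a lower and 3 a higher siLSD1 mean, with a median difference of -0.85. Over all probe sets below the filter 49.6% had a lower and 50.4% a higher mean, and the median difference was 0.0096. Both siLSD1 arrays were below both siControl arrays for 5 of the 13, against 16.1% of all dim probe sets, and the 5 were RARA 203750_s_at, RARB 208413_at, RXRA 202426_s_at, CYP26A1 and CYP26B1 234721_s_at. The opposite separation occurred in 0 of the 13, against 16.9% of all dim probe sets. A mean at least 2-fold lower was found for 5 of the 13 and a mean at least 2-fold higher for 1, where 17.4% and 16.2% of all dim probe sets reached these sizes. RARA 203750_s_at and RXRA 202426_s_at were dim only through their siLSD1 values, with siControl means of 5.14 and 4.25 above the filter level. The filter thus placed these lowered probe sets on the dim side, and the counts of lower ones draw partly on it. Probe sets of 1 gene share their transcript, and the 13 come from 8 genes, so these counts are a description. They do not extend to the rest of the pathway, whose dim probe sets, given below, mostly had higher siLSD1 means. The lowest of the 4 values lay on siLSD1 replicate 1 in 7 of the 13 and on siLSD1 replicate 2 in 3. The highest lay on siControl replicate 1 in 6 and on siControl replicate 2 in 5. The same counts over all dim probe sets are not given here. Intervals at this level were wide, with a median half-width of 2.29, and 12 of the 13 held 0.

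**Figure D3:**
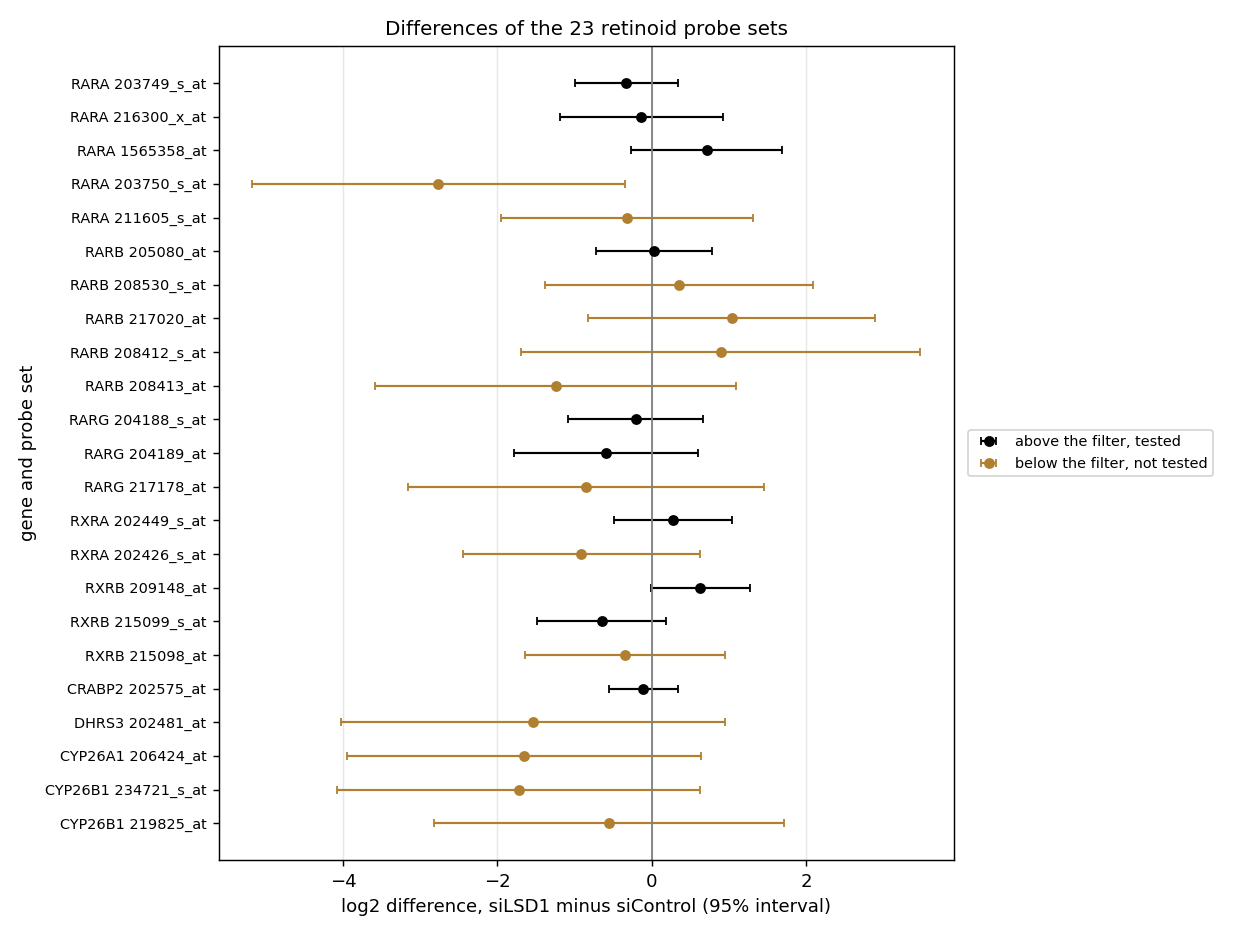
Log2 difference, siLSD1 minus siControl, with its 95% interval (horizontal axis) for the 23 retinoid probe sets, 10 tested (black) and 13 below the filter (brown). The interval holds 0 for every tested probe set and for all dim ones except RARA 203750_s_at.

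The probe sets of a gene often disagreed. Of the 6 genes with more than 1 probe set (RARA, RARB, RARG, RXRA, RXRB and CYP26B1), 4 had means on both sides of 0, namely RARA, RARB, RXRA and RXRB. RARG and CYP26B1 had lower siLSD1 means in all of theirs, with overlapping groups in all but CYP26B1 234721_s_at.

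The rest of the pathway was examined through 53 further genes, of which 44 had a probe set and 22 a tested one. Of their 44 tested probe sets, 0 passed the threshold in limma and 1 had an unadjusted p under 0.05. By their means 21 were higher and 23 lower in siLSD1, which became 30 higher and 14 lower under median centring. The median difference of -0.06 turned to 0.11 under that centring. Leaving out siControl replicate 1 gave -0.01, and leaving out siControl replicate 2 gave -0.15, with 15 probe sets higher and 29 lower. The groups did not overlap for 4 higher and 9 lower probe sets, where 16.3% and 16% of all tested probe sets were separated in these directions. The 51 dim probe sets of these further genes leaned the other way from the dim ones described above. Of these 51, 34 had a higher and 17 a lower siLSD1 mean, against 50.4% and 49.6% of all dim probe sets. Their groups did not overlap for 12 higher and 6 lower probe sets, against 16.9% and 16.1% of all dim probe sets. Why the dim probe sets of the gene lists differ in direction was not tested.

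Coregulators of the receptors made up 9 of the tested probe sets, 4 higher and 5 lower by their means. NCOA2, a coactivator of nuclear receptors, was at 5.76 and 5.75 in siControl and 5.48 and 4.74 in siLSD1 by probe set 205732_s_at, with both siLSD1 arrays lower. Its difference of -0.65 had a 95% interval from -1.48 to 0.19, and its 4 tested probe sets were split into 2 higher and 2 lower. NCOA1, a related coactivator, had a difference of -0.29 by probe set 209105_at, and 3 of its 4 probe sets had lower means. PRAME, a tumour antigen that represses retinoic acid receptor signalling, had a difference of 0.0012 with a 95% interval from -0.26 to 0.26.

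Enzymes listed under retinal and retinoic acid synthesis had 15 tested probe sets, 5 higher and 10 lower by their means. The list is mixed, since it also holds enzymes that reduce retinal as DHRS3 does, such as RDH11. RDH11, a reductase of retinal, was at 8.42 and 8.18 in siControl and 8.001 and 7.84 in siLSD1 by probe set 217775_s_at, with both siLSD1 arrays lower and a difference of -0.38 (95% interval from -0.89 to 0.13). Of its 4 tested probe sets 3 had lower means. RDH5 (-0.43) and RDH13 (-0.26 by probe set 1559190_s_at) had overlapping groups.

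Uptake and carrier genes had 5 tested probe sets, 4 higher and 1 lower. STRA6, the membrane receptor that takes up retinol, was at 7.19 and 7.18 in siControl and 7.35 and 7.56 in siLSD1 by probe set 221701_s_at. Both siLSD1 arrays were higher, with a difference of 0.28 (95% interval from -0.29 to 0.84), and its 3 tested probe sets had higher means. DGAT1, which can esterify retinol, had a difference of -0.42, and FABP5, a fatty acid carrier that also binds retinoic acid, one of 0.11.

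Genes known as retinoic acid targets had 15 tested probe sets, 8 higher and 7 lower. RET, a receptor tyrosine kinase, was at 8.65 and 8.55 in siControl and 8.99 and 9.13 in siLSD1 by probe set 211421_s_at (difference 0.45, limma unadjusted p = 0.0369, adjusted p = 0.99). The other tested probe sets of RET did not share this, and of the 3 in all 2 were higher and 1 lower. HOXD8, a homeobox factor, was at 5.42 and 6.64 in siControl and 6.94 and 6.94 in siLSD1. Its difference of 0.91 (95% interval from -0.05 to 1.86) drew on the low value of siControl replicate 1. NAV2, a gene of neurite growth, had lower means in 3 of 3 tested probe sets. The difference was -0.28 by probe set 218330_s_at, with overlapping groups. The dim probe sets of NAV2 did not share this, with differences of -0.42 (1556606_at), 1.04 (1567357_at) and 2.65 (1567358_at). For 1567358_at both siLSD1 arrays were higher.

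**Figure D4:**
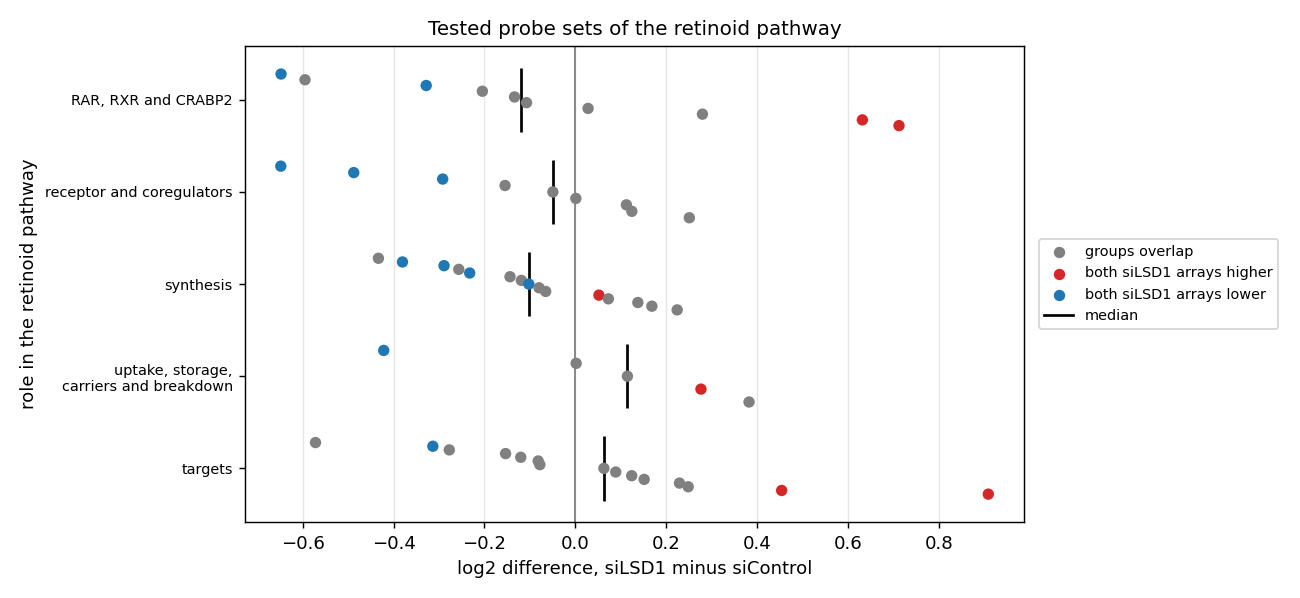
Log2 difference, siLSD1 minus siControl (horizontal axis), of tested probe sets by role in the retinoid pathway, with a row for the 10 tested probe sets of the receptors and CRABP2. Points are probe sets, coloured by whether the groups overlap, and black lines are medians. Medians lie between -0.12 and 0.11, each role has points on both sides of 0, and HOXD8 at 0.91 lies farthest from 0.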

How the data were processed

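The deposited table held 1 log2 signal per probe set and array, and the scale was read from the values, since base-2 antilogs had trimmed means of 100.0 on each array (2% trimmed at each end). How the authors summarized probes into probe sets is a step not given in the sources used here. The arrays were quantile normalized over 54613 probe sets, after 62 control probe sets were left out. Probe sets were named through the platform annotation of GEO, where 41091 have 1 symbol, 1801 several and 11721 none listed. Probe sets with a mean below the median of all means (4.02) were left out of the test, and their intervals come from the fit without a filter. The comparison used limma 3.58.1 in R 4.3.3 (lmFit, eBayes with a mean-variance trend, two-sided, Benjamini-Hochberg adjustment over 27307 probe sets, threshold 0.05, 7.53 degrees of freedom). The fit was also run on simulated data, with noise drawn from its own fitted spread and no outlying array. That run does not show how the fit handles siControl replicate 1. Alternatives were the deposited scaling, median centring, no filter, no trend, a replicate block, leaving out each array, and gene-level values. The 10 genes and the lists were chosen with earlier results of these data known. All probe sets of the 10 genes are described, and of the other pathway genes up to 3 per role with the smallest unadjusted p. Promoter windows are those of RefSeq for GRCh38.p14, matched by symbol for 10 of the 10 genes. No coordinates of probe sets are given, since no source used here gives their build.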

Additional observations from a re-analysis of the deposited data

How the results depend on the processing

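None of the 10 tested retinoid probe sets passed the threshold under any alternative run, with adjusted p-values of at least 0.32 in limma. Of 61 values under alternatives other than leaving out an array, 4 turned sign: CRABP2 under median centring (0.10), RARB 205080_at under the deposited scaling (-0.0029), and, as the mean of a gene's probe sets, RXRA (-0.32) and RXRB (-0.12). With 1 array left out, the 4 probe sets with separate groups could not turn, and 8 of 40 values turned, in the other 6 probe sets. The ranges were -0.22 to 0.0062 for CRABP2, -0.63 to 0.36 for RARA 216300_x_at, -0.12 to 0.17 for RARB 205080_at, -0.55 to 0.14 for RARG 204188_s_at, -1.29 to 0.10 for RARG 204189_at and -0.048 to 0.61 for RXRA 202449_s_at. Over all probe sets tested, leaving out an array gave 0 to 13 called higher, the 13 without siControl replicate 2, and 0 to 5 called lower, the 5 without siLSD1 replicate 1. The other alternatives called 0 in each direction. The same 10 probe sets were split into 3 higher and 7 lower under the deposited scaling and 5 and 5 under median centring, and with 1 array left out the higher ones numbered 3 to 6 and the median ran from -0.14 to 0.03. The median was -0.32 with the mean of a gene's probe sets. Without a filter 7 were higher and 16 lower of 23. With the brightest probe set per gene 3 were lower of 6 genes, and with the mean of a gene's probe sets 0 were higher of 5. For the other pathway genes the counts were 55 higher and 40 lower without a filter, 14 lower under median centring, 8 lower with the brightest probe set, and 11 higher and 9 lower with the mean. The labels do not say what a shared replicate number means. The deviations of siControl replicate 1 and siLSD1 replicate 1 from their group means had a correlation of -0.07. With 2 arrays per group this cannot show whether same-numbered arrays were handled together. A fit with the replicate block called 0 probe sets higher and 0 lower. Below the filter, 8 of 104 values turned sign, in 6 of the 13 probe sets. Signal over background was not available, so a level near the bottom of the scale does not show that a gene is silent.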
